A study of Saccharomyces cerevisiae BY4743 with 24 samples.

Results

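The mRNAs described here encode 34 yeast proteins that remove the poly(A) tail, remove the cap and degrade the mRNA body, and were chosen as the table entries whose gene name equals one on a fixed list of such factors. All 34 names were present, among 5959 mRNA entries. The list holds 7 decapping factors, the exonuclease gene XRN1, 7 Lsm ring genes, 9 Ccr4-Not genes, 2 Pan2-Pan3 genes, 5 genes of the Ski complex and exosome, and 3 genes of nonsense-mediated decay. RNA was sequenced without removal of ribosomal RNA from 24 libraries of Saccharomyces cerevisiae BY4743, a diploid laboratory strain. Cells of the heat group were caught on a filter, put into medium at 42 °C and held there for 30 min, whereas cells of the other group were taken directly from the 30 °C culture. Both groups had grown at 30 °C to mid-log phase in synthetic medium with 2% raffinose and 0.005% glucose, and both met cycloheximide, which stalls elongating ribosomes, at harvest. Each lysate was spun through a sucrose gradient and cut into 4 pools, of which the library names call pools 1 to 3 mono, di and tri, and pool 4 lay beyond them, so 3 gradients at 42 °C and 3 at 30 °C gave 12 libraries each. Filtration and resuspension went with 42 °C, and their part cannot be told apart from that of temperature.

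Most yeast mRNAs are degraded after their poly(A) tail has been shortened. The Pan2-Pan3 and Ccr4-Not nucleases trim the tail, the Lsm ring and Pat1 bind the shortened end, Dcp2 removes the cap, and Xrn1 digests the exposed 5′ end. A second route runs from the 3′ end through the exosome with its cytoplasmic partner, the Ski complex, and nonsense-mediated decay sends mRNAs with early stop codons into these routes.

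The deposited values were TPM (shares of a library's transcripts, corrected for transcript length). Messenger RNA held 0.142% to 2.75% of a library at 42 °C and 2.05% to 3.77% at 30 °C, and it was scarcest in pool 1 at 42 °C, at 0.142% to 0.402%. Levels below are mRNA TPM scaled so that the median tested mRNA was equal in all libraries, because with mRNA TPM alone the median gene moved by 0.65, 0.42, -0.24 and -0.94 on the log2 scale between 42 °C and 30 °C in pools 1 to 4. A level in a pool combines how much of an mRNA the cells held with the share of it that carried that number of ribosomes, and the 2 cannot be told apart here. TPM keep no read depth, so the depth behind each value is unknown. The heat chaperone gene HSP104 ranged from 3948 to 10260.4 mRNA TPM at 42 °C and from 20.6 to 100.5 mRNA TPM at 30 °C. Of the genes that BY4743 lacks, URA3 was listed at 0 in all 24 libraries, but LEU2 was listed above 0 in every replicate 1 and replicate 2 library and at 0 in the 8 replicate 3 libraries, so values are given for each replicate. Of genes of haploid cells, the receptor gene STE2 ranged from 0 to 3.91 mRNA TPM at 42 °C and from 0 to 1.17 at 30 °C, while the pheromone gene MFA2 ranged from 0 to 1294 mRNA TPM at 42 °C and had 0 in each library at 30 °C. MFA2 was at 0 in 9 libraries at 42 °C. MFA1, also a pheromone gene, reached 787 mRNA TPM at 42 °C and 407 at 30 °C, with 9 and 11 libraries at 0. STE3, STE18 and FUS1 reached 17.9, 10.5 and 6.19 at 42 °C, and 3.99, 0.857 and 0 at 30 °C. For the heat comparison over gradient means, each call that was lost or gained when a single gradient was left out is named with its gene. Replicate libraries of pool 1 at 42 °C correlated at 0.772 to 0.774 over mRNAs, the lowest of the 8 groups. No label states that replicates came from separate cultures, so p-values measure the spread between these samples, which may be technical.

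At 42 °C the decay factor mRNAs had moved in both directions. Among decapping factors, EDC2, EDC1, DHH1 and DCP2 rose and EDC3 and PAT1 fell. XRN1, LSM1, LSM2, LSM3 and NMD2 also fell, and CAF40 was the Ccr4-Not gene that rose. EDC2 moved furthest, to 14.4 times its 30 °C level. With no filter on low values, 6 of the 34 members were higher at 42 °C, 7 were lower and 21 did not pass, beside 29.7% higher and 27.7% lower among all 5777 mRNAs fitted. A filter that kept mRNAs reaching 10 mRNA TPM in 3 or more libraries left 23 members, of which 5 were higher and 7 lower, beside 33.9% higher and 33.1% lower among 3949 mRNAs. The genes named above are those called with this filter. Without it PAT1 was not called, while SKI7 was called higher and RRP6 lower. In both fits the shares of members lie below those of all mRNAs. The median log2 difference was -0.44 over the 23 members and 0.05 over all tested mRNAs. These calls come from limma on log2(level + 1), averaged over the 4 pools of each gradient, two-sided, with Benjamini-Hochberg adjustment at 5%. The filter can admit a gene through the temperature where it is high: EDC1 reached 10 mRNA TPM in 7 libraries at 42 °C and 1 at 30 °C, EDC3 in 0 and 8, and LSM2 in 1 and 9, so the count over the 23 supports nothing by itself.

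**Figure D1:**
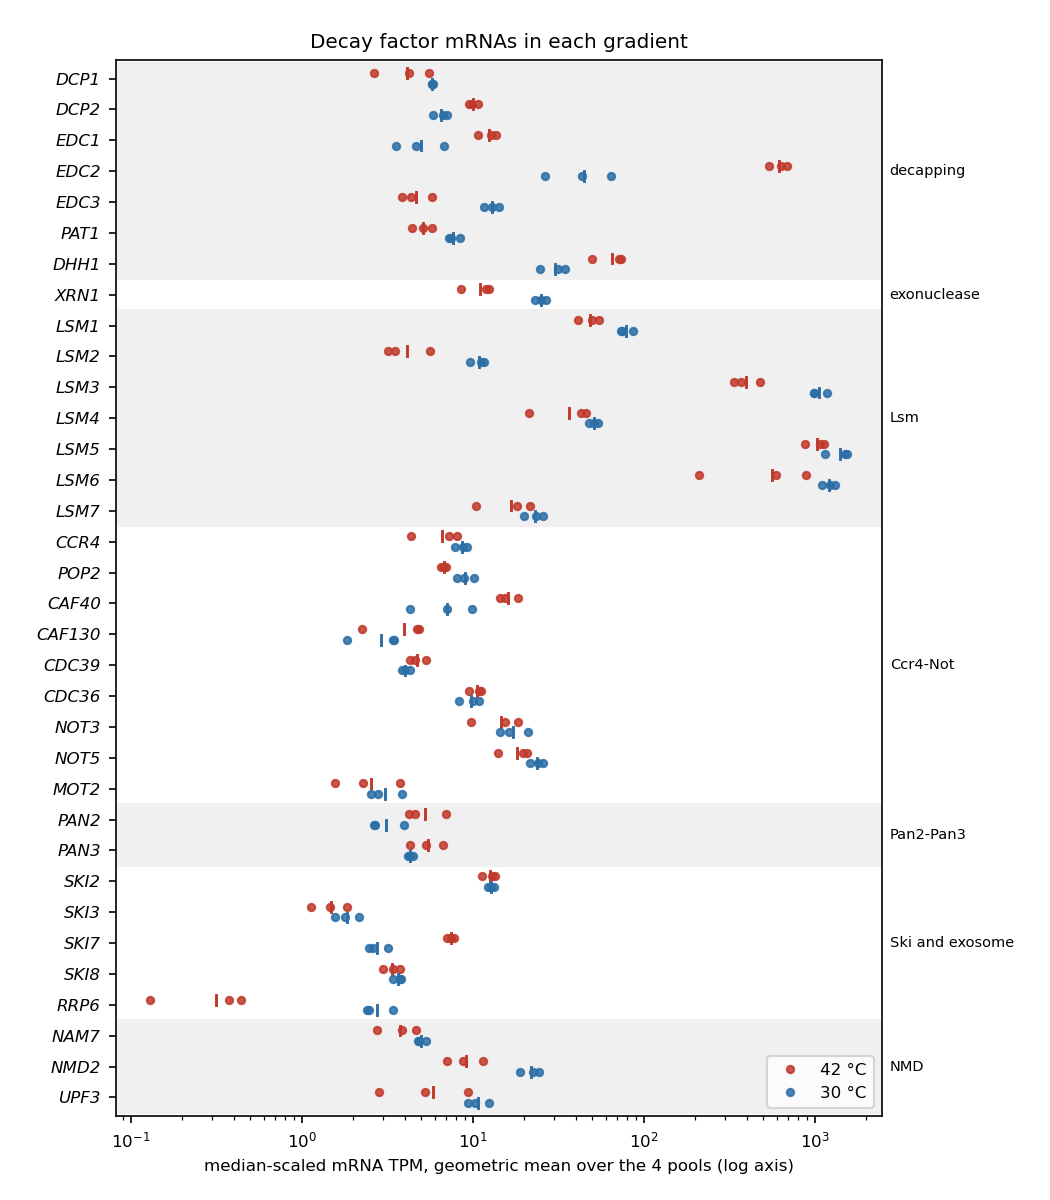
Level of each of the 34 mRNAs in each gradient, as the geometric mean over the 4 pools of the median-scaled mRNA TPM (log axis). Red points are the 3 gradients at 42 °C, blue points the 3 at 30 °C, vertical ticks are their means, and the grey bands separate roles; EDC2 has all 42 °C points between 537.6 and 689.7, above all 30 °C points.

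EDC2 (YER035W, chromosome V, 222639 to 223076 in R64) encodes a small RNA-binding protein that stimulates decapping by Dcp2. Its gradient level was 538, 689.7 and 635 in replicates 1, 2 and 3 at 42 °C, against 64.2, 43.2 and 26.3 at 30 °C. All 3 heat gradients lay far above all 3 at 30 °C. The difference was 3.85 ± 0.33 on the log2 scale (SE, n = 3 gradients each, limma adjusted p = 9.52e-05), the 133rd largest rise of the 3949 tested mRNAs. EDC1 (YGL222C, chromosome VII, 80659 to 81186), the paralog of EDC2 with a like role, was far less abundant. Its level was 10.8, 13.6 and 12.7 at 42 °C, against 6.81, 3.54 and 4.64 at 30 °C, with no overlap. EDC1 rose by 1.19 ± 0.25 (SE, limma adjusted p = 0.00501).

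DHH1 (YDL160C, chromosome IV, 170410 to 171930) encodes a DEAD-box helicase that promotes decapping and represses translation. Its level was 49.7, 73.3 and 71.5 at 42 °C, against 24.8, 34.8 and 31.3 at 30 °C, and the groups did not overlap. It rose by 1.07 ± 0.23 (SE, limma adjusted p = 0.00575). DCP2, the catalytic subunit of the decapping enzyme, had 9.48, 9.94 and 10.8 at 42 °C, against 7.03, 6.66 and 5.87 at 30 °C. Although the groups did not overlap, the rise was small, at 0.56 ± 0.17 (SE, limma adjusted p = 0.0249), and it did not pass with the replicate number as a block (limma adjusted p = 0.0614). Without the 42 °C replicate 3, or the 30 °C replicate 2 or 3, DCP2 did not pass either, with limma adjusted p between 0.0633 and 0.0937. The call was also lost without median scaling and over pools 2 to 4 (limma adjusted p = 0.0850 and 0.0650). It held with a pseudocount of 0.1 or 5, with no mean-variance trend, with levels averaged over pools before log2 and with quantile normalization (limma adjusted p between 0.0144 and 0.0347). DCP1, the partner subunit that activates Dcp2, stayed below the filter, with gradient levels of 4.24, 5.50 and 2.64 at 42 °C, against 5.80, 5.84 and 5.75 at 30 °C. Its groups were apart, but fitted without a filter its difference was -0.42 ± 0.24 (SE, limma adjusted p = 0.182). Within pool 1 DCP1 so fitted passed, at -1.29 ± 0.42 (SE, limma adjusted p = 0.0194). In pools 2 to 4 it had -0.63, -0.11 and 0.35 and did not pass.

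EDC3 (YEL015W, chromosome V, 126629 to 128284), an enhancer of decapping and a scaffold of P-bodies, went the opposite way to EDC1 and EDC2. Its level was 4.33, 3.86 and 5.73 at 42 °C, against 11.7, 12.9 and 14.2 at 30 °C. The highest heat gradient was below the lowest at 30 °C, and the difference was -1.32 ± 0.20 (SE, limma adjusted p = 0.00123). PAT1, which bridges the Lsm ring and the decapping enzyme, had 5.78, 5.11 and 4.40 at 42 °C, against 7.21, 8.38 and 7.45 at 30 °C. Its groups were apart, but the difference of -0.51 ± 0.19 (SE, limma adjusted p = 0.0475) was near the threshold. With the replicate block PAT1 did not pass (limma adjusted p = 0.0900), nor without the 42 °C replicate 2 or 3 or any one of the 30 °C replicates (limma adjusted p between 0.0770 and 0.158). The call was also lost with a pseudocount of 0.1 or 5, without median scaling, with levels averaged over pools before log2 and with quantile normalization (limma adjusted p between 0.0538 and 0.142). It held with no mean-variance trend, over pools 2 to 4 and relative to 25S rRNA (limma adjusted p = 0.0407, 0.0216 and 0.00108).

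XRN1 (YGL173C, chromosome VII, 175527 to 180113) encodes the cytoplasmic exonuclease that digests decapped mRNA. Its level was 12.005, 8.55 and 12.5 at 42 °C, against 23.2, 25.0 and 26.6 at 30 °C. Every heat gradient was lower than every gradient at 30 °C, and XRN1 fell by 1.13 on the log2 scale (SE 0.20, limma adjusted p = 0.00220).

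The Lsm genes encode the ring that binds shortened tails. LSM1 is particular to the cytoplasmic ring, while LSM2 to LSM7 also serve the nuclear ring that binds U6 RNA. Of the 7 tested, 3 fell and 4 did not pass, beside 33.9% higher and 33.1% lower among all tested mRNAs. LSM3 (YLR438C-A, chromosome XII, 1013909 to 1014178) had 372, 335 and 480.4 at 42 °C, against 989, 994 and 1169.9 at 30 °C, a clear separation, and its difference was -1.42 ± 0.21 (SE, limma adjusted p = 0.000963). LSM2 had 3.17, 5.59 and 3.51 at 42 °C, against 11.6, 9.63 and 11.1 at 30 °C. Its difference was -1.24 ± 0.24 (SE, limma adjusted p = 0.00331), and it was listed at 0 in 1 library at 42 °C. LSM1 had 54.7, 49.9 and 41.2 at 42 °C, against 73.6, 86.3 and 75.0 at 30 °C. The LSM1 groups were apart, and the difference was -0.68 ± 0.18 (SE, limma adjusted p = 0.0149), but it did not pass without the 30 °C replicate 2 (limma adjusted p = 0.0620).

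The remaining Lsm mRNAs had differences from -1.33 to -0.44 and did not pass with all gradients. LSM6 had 209, 591 and 882 at 42 °C, against 1313, 1096 and 1220 at 30 °C, so its groups were apart, but the heat gradients spread widely (-1.33 ± 0.51, SE, limma adjusted p = 0.0517). Its lowest heat gradient, replicate 1, holds a pool in which LSM6 was listed at 0, and without that gradient LSM6 had -0.74 and passed (limma adjusted p = 0.0408). It also passed without the 42 °C replicate 3, at -1.77 (limma adjusted p = 0.0167), with a pseudocount of 5 (-1.14, limma adjusted p = 0.0276), on mRNA TPM without median scaling (-1.38, limma adjusted p = 0.0441) and with levels averaged over pools before taking log2 (-0.79, limma adjusted p = 0.00495). LSM3, LSM5 and LSM6 were among the most abundant of the 34 mRNAs and are the shortest, at 270, 282 and 261 bases of gene. Over the 34 members the mean log2 level had a Spearman correlation of -0.53 with gene length, against -0.26 over all 5959 mRNAs. This is a description across genes from the same libraries, and genes are not independent replicates.

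Ccr4-Not is the main cytoplasmic deadenylase and carries the nucleases Ccr4 and Pop2. Of its 9 mRNAs 6 were tested, and CAF40 alone of these passed over the gradient means. Among all tested mRNAs 33.9% were higher and 33.1% lower. CAF40 (YNL288W, chromosome XIV, 90303 to 91424), a conserved subunit that contacts RNA-binding proteins, had 14.4, 15.5 and 18.3 at 42 °C, against 9.93, 7.02 and 4.31 at 30 °C. No gradient overlapped, and the difference was 1.13 ± 0.29 (SE, limma adjusted p = 0.0117). CCR4 and POP2 had differences of -0.38 ± 0.25 and -0.36 ± 0.18 (SE, limma adjusted p = 0.216 and 0.107). CDC36 (Not2), NOT3 and NOT5, which are parts of the complex's Not module, lay between -0.40 and 0.11 and did not pass. CDC39 (the Not1 scaffold), CAF130 and MOT2 (the Not4 ubiquitin ligase) were below the filter. Without a filter their differences were 0.21, 0.35 and -0.21, and none passed.

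Pan2-Pan3 starts the trimming of the tail. Both mRNAs were below the filter, and without it PAN2 had a difference of 0.63 ± 0.24 (SE, limma adjusted p = 0.0588) and PAN3 one of 0.29 ± 0.20 (SE, limma adjusted p = 0.254). PAN2 had 4.24, 6.93 and 4.60 at 42 °C, against 3.98, 2.65 and 2.68 at 30 °C, with no overlap. Within pools 2 and 3 PAN2 passed, at 0.93 and 0.85 (limma adjusted p = 0.0305 and 0.0497). In pools 1 and 4 it had -0.02 and 0.74 and did not pass.

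The Ski complex and its adaptor Ski7 feed mRNAs to the cytoplasmic exosome. SKI2, its helicase, had a difference of -0.02 ± 0.16 (SE, limma adjusted p = 0.927). SKI7 was too low for the filter, at 7.40, 7.74 and 7.07 at 42 °C, against 3.18, 2.47 and 2.60 at 30 °C. These groups were far apart, and without a filter SKI7 rose by 1.19 ± 0.17 (SE, limma adjusted p = 0.00107). SKI3 and SKI8, the other parts of the complex, had differences of -0.18 and -0.06 without a filter and did not pass. RRP6, a nuclear exonuclease of the exosome, was the scarcest of the 34 mRNAs at 42 °C, at 0.374, 0.130 and 0.442, against 2.40, 3.40 and 2.48 at 30 °C. Its groups were apart, and without a filter the difference was -1.50 ± 0.18 (SE, limma adjusted p = 0.000562), on a scale that understates changes of such low values, and RRP6 was listed at 0 in 2 libraries at 42 °C.

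Nonsense-mediated decay needs NAM7 (Upf1), NMD2 (Upf2) and UPF3. NMD2 (YHR077C, chromosome VIII, 252374 to 255756), which joins the others, had 11.4, 7.08 and 8.73 at 42 °C, against 22.5, 24.4 and 18.9 at 30 °C. The groups were clearly apart, and the difference was -1.20 ± 0.22 (SE, limma adjusted p = 0.00265). UPF3 had a difference of -0.88 ± 0.37 (SE, limma adjusted p = 0.0705), with overlapping groups. Without the 42 °C replicate 3 UPF3 had -1.24 and passed (limma adjusted p = 0.0116). NAM7, the helicase, was below the filter, and without it the difference was -0.33 ± 0.21 (SE, limma adjusted p = 0.216).

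These differences are relative to the median mRNA, whose own log2 difference was -0.95 when TPM were taken relative to 25S rRNA. On that scale 1 member was higher and 18 lower, beside 15% higher and 53.3% lower among all 3949 mRNAs. EDC2 was the one that was higher, by 2.76 ± 0.35 (SE, limma adjusted p = 0.000177). EDC1 and CAF40 had differences of 0.25 and 0.14 and did not pass, while DHH1 and DCP2 turned to -0.01 and -0.42, also without passing. The reference itself varied, since 25S rRNA had 97024 to 268714 TPM in pool 1 at 42 °C, against 292565 to 388690 TPM in pool 1 at 30 °C. The part of this in the counts was not tested. In the plot of both scales all 23 tested mRNAs lie further left relative to 25S rRNA than relative to the median mRNA. The change of reference applies the same factor to every mRNA of a library, so this common shift says nothing about the members. Relative to the spike-in RNAs added to each pool, limma called no member and 0 had an unadjusted p under 0.05, beside 1.44% higher and 9.83% lower among all tested mRNAs. Spike-in sums were 22.7 to 94.3 TPM in replicate 1, against 245.7 to 511 TPM in replicate 2 and 332 to 442 TPM in replicate 3. With the replicate number as a block, an alternative added after the data were seen, 1 member was higher and 18 lower on the spike-in scale, beside 10.4% and 52.5% of all tested mRNAs.

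**Figure D2:**
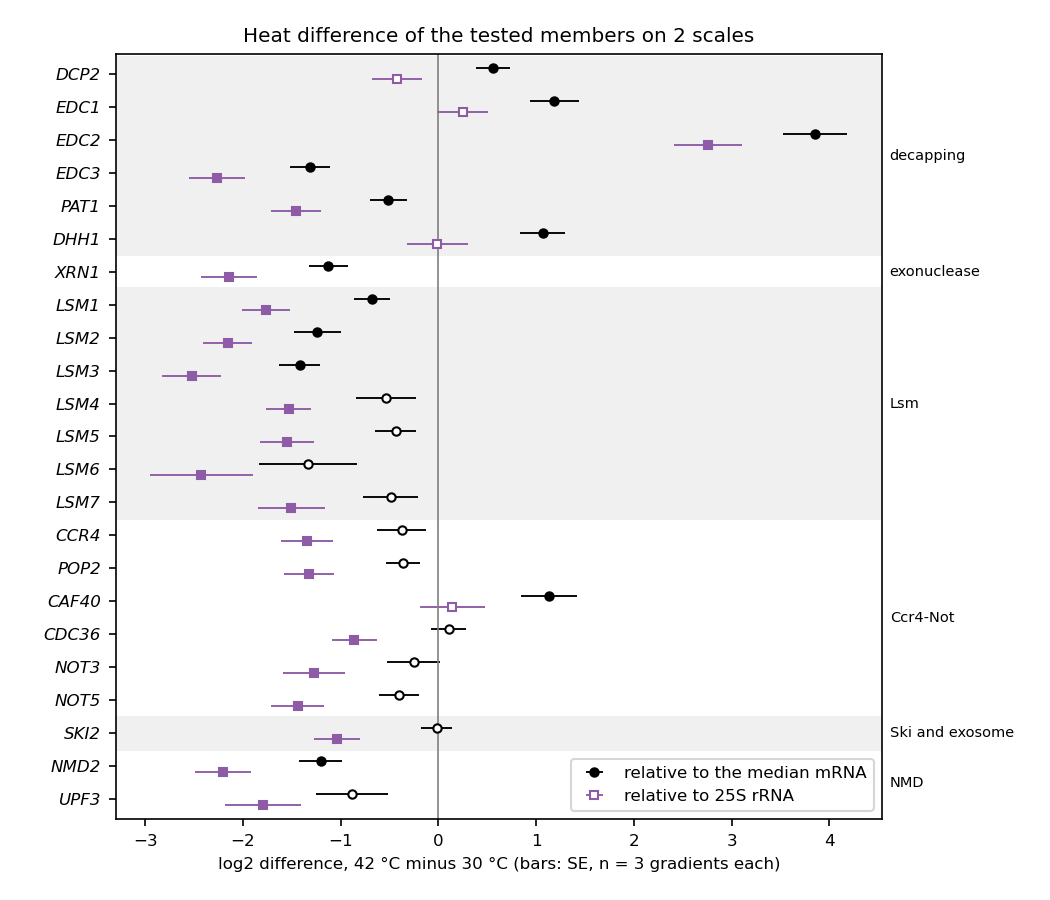
Log2 difference, 42 °C minus 30 °C, of the 23 tested mRNAs over gradient means (points, with SE bars, n = 3 gradients each), relative to the median mRNA (black circles) and to 25S rRNA (purple squares). Filled symbols passed a limma adjusted p of 5%; on the 25S scale EDC2 is the only one above 0 that passed.

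Further genes of the decay pathways were read from 2 lists, to be set beside 33.9% higher and 33.1% lower among all tested mRNAs. Of 17 genes of the exosome and of TRAMP, its nuclear cofactor, 14 were tested, 1 was higher at 42 °C, 9 were lower and 4 did not pass, with a median difference of -0.90. MTR4, the helicase of TRAMP, had a difference of -3.68 ± 0.25, and the exosome subunit genes MTR3 and RRP4 had -2.97 ± 0.31 and -2.93 ± 0.44 (SE, limma adjusted p = 4.19e-05, 0.000208 and 0.00107). Of 20 further regulators and scavengers, 14 were tested, 5 were higher, 2 lower and 7 did not pass, with a median of 0.10. DCS2, a stress-induced relative of the cap scavenger Dcs1, rose by 4.78 ± 0.37 (SE, limma adjusted p = 6.82e-05). CTH1 and TIS11, which encode zinc-finger proteins that bind AU-rich mRNAs, rose by 3.49 ± 0.32 and 2.37 ± 0.65 (SE, limma adjusted p = 0.000125 and 0.0160).

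Within single pools EDC2, EDC3 and XRN1 passed in all 4, each in 1 direction. These fits took the 24 libraries as separate values with a shared estimate of the spread, although each gradient gave 4 of them. When each pool was fitted on its own libraries, 25 of the member calls within pools held and 12 were lost. In pool 1, 3 members were higher and 7 lower, beside 27.1% and 26.2% of all tested mRNAs. In pool 2, 2 were higher and 6 lower, beside 26.5% and 26.1%. In pool 3 the members counted 3 higher and 8 lower, beside 27.1% and 25.1%, and in pool 4 they counted 4 higher and 4 lower, beside 28.8% and 24.9%. EDC2 had log2 differences of 2.89, 4.02, 3.76 and 4.73 in pools 1 to 4, and XRN1 had -1.39, -1.07, -0.98 and -1.05. The XRN1 difference thus varied by 0.41 across pools, less than that of EDC2, at 1.84. EDC3 had -0.78, -1.85, -1.33 and -1.31, and its pool 1 value did not pass without the 42 °C replicate 1 or without any one of the 30 °C replicates (limma adjusted p between 0.0613 and 0.161). On mRNA TPM without median scaling EDC3 had -0.12 in pool 1 (limma adjusted p = 0.785), and XRN1 had -0.71 and -0.64 in pools 1 and 2 (limma adjusted p = 0.0777 and 0.115), so these 3 calls did not hold. Fitted without a filter, RRP6 also fell in all 4 pools, at -1.47, -1.75, -1.35 and -1.43 (limma adjusted p between 5.98e-05 and 0.000737). SKI7 so fitted rose in pools 1, 2 and 4, by 0.82, 1.80 and 1.47, and had 0.67 in pool 3 (limma adjusted p = 0.0628).

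Other members passed in some pools. LSM3 fell in pools 1 to 3, by 1.69, 1.94 and 1.41, and had -0.64 in pool 4 (limma adjusted p = 0.0572), which passed with the replicate block (limma adjusted p = 0.0280). DHH1 rose in pools 3 and 4, by 1.55 and 1.20, and had 0.72 and 0.79 in pools 1 and 2, which did not pass, although the pool 2 value passed with the replicate block (limma adjusted p = 0.0484). The pool 4 value of DHH1 did not pass without the 42 °C replicate 2 or 3 (limma adjusted p = 0.0543 and 0.0534), and on mRNA TPM without median scaling it was 0.12 (limma adjusted p = 0.825). Passing in one pool and not in another does not show a difference between pools, which was tested for pool 4 against pool 1. LSM4 in pool 1, UPF3 in pool 2 and LSM7 in pool 4 each passed with 1 heat library listed at 0. Without that gradient they had -0.59, -0.74 and -0.97 and did not pass (limma adjusted p = 0.281, 0.220 and 0.0768). The call of LSM2 in pool 2 also includes 1 heat library listed at 0. Its levels there were 1.84, 6.10 and 0 at 42 °C, against 13.3, 19.7 and 16.5 at 30 °C. The LSM2 differences were -0.87, -2.67, -1.49 and 0.07 in pools 1 to 4. Fitted on the libraries of one pool alone, 1 member was higher and 4 were lower in pool 1, beside 20.8% and 19.4% of all tested mRNAs. In pool 4 so fitted, 3 were higher and 2 lower, beside 26.6% and 23%.

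**Figure D3:**
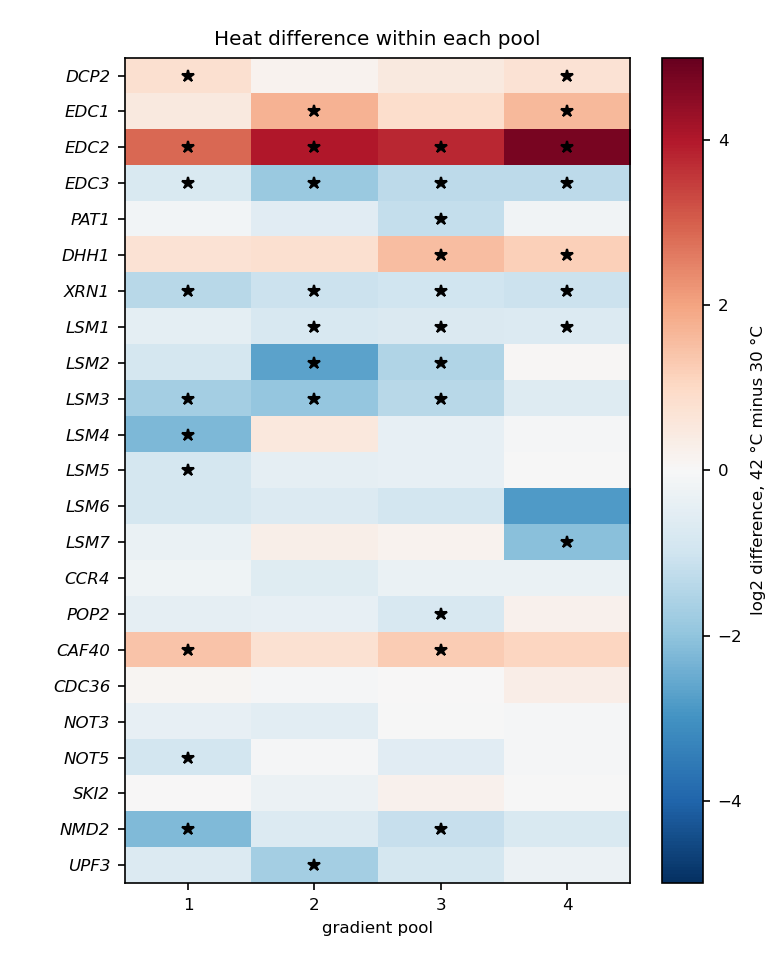
Log2 difference, 42 °C minus 30 °C, of each of the 23 tested mRNAs (rows) within each gradient pool (columns); red is higher and blue lower at 42 °C, and a star marks a limma adjusted p under 5%. EDC2, EDC3 and XRN1 carry a star in all 4 pools.

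Comparing pool 4 with pool 1 inside the same gradients asks which mRNAs were relatively more abundant with many ribosomes. At 42 °C 1 member was higher in pool 4 and 2 were lower, beside 16% and 7.07% of all tested mRNAs. At 30 °C 0 were higher and 1 was lower, beside 6.69% and 3.85%. The heat change of this difference passed for 1 member, higher, and for 0 lower, beside 0.81% and 0.38% of all tested mRNAs.

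EDC2 was the member that passed the test of a changed distribution along the gradient. At 42 °C its level was 1073, 1627 and 1313 in pool 4, against 374, 293 and 415 in pool 1, so every heat gradient had more in pool 4. At 30 °C it was 74.2, 46.7 and 33.2 in pool 4, against 101.8, 50.2 and 20.5 in pool 1, with overlap. The pool 4 minus pool 1 difference was 1.88 ± 0.28 at 42 °C (SE, limma adjusted p = 0.000357) and 0.04 ± 0.28 at 30 °C (SE, limma adjusted p = 0.981). The difference between these was 1.84 ± 0.39 (SE, limma adjusted p = 0.0396). That last call passed without the 42 °C replicate 1 (limma adjusted p = 0.0447) but not without any other single gradient (limma adjusted p between 0.0559 and 0.189). It also depends on the scaling, since on mRNA TPM without median scaling the value was 0.03 (limma adjusted p = 0.964).

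The Lsm mRNAs that passed went the other way along the gradient. LSM6 had 0, 202 and 434 in pool 4 at 42 °C, against 2220.3, 1352 and 1717 in pool 1, a difference of -5.28 ± 1.36 (SE, limma adjusted p = 0.0133). One library was listed at 0, and without that gradient the difference was -2.36 (limma adjusted p = 0.00855). At 30 °C LSM6 had 513, 193 and 325 in pool 4, against 2498, 4167 and 2975 in pool 1, with no overlap, but the difference of -3.30 ± 1.36 did not pass (SE, limma adjusted p = 0.151). The fit shares its estimate of the spread between both temperatures, so the 42 °C library listed at 0 also enters this SE. A call at 42 °C and none at 30 °C therefore does not show that LSM6 was lower in pool 4 under heat only.

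LSM7 had 5.25, 0 and 15.1 in pool 4 at 42 °C, against 39.1, 14.7 and 32.2 in pool 1. The groups overlapped, and the difference was -2.57 ± 0.67 (SE, limma adjusted p = 0.0145). Without the 42 °C replicate 1 it did not pass (limma adjusted p = 0.0656). LSM5 at 30 °C had 820.7, 347 and 585 in pool 4, against 1701, 1206 and 1501 in pool 1, with no overlap, a difference of -1.40 ± 0.31 (SE, limma adjusted p = 0.00940). It did not pass without the 30 °C replicate 2 or 3 (limma adjusted p = 0.110 and 0.0927). LSM5 was highest in pools 2 and 3 at 30 °C, at 1832 to 2760.2, and pool 3 against pool 1 gave 0.49.

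**Figure D4:**
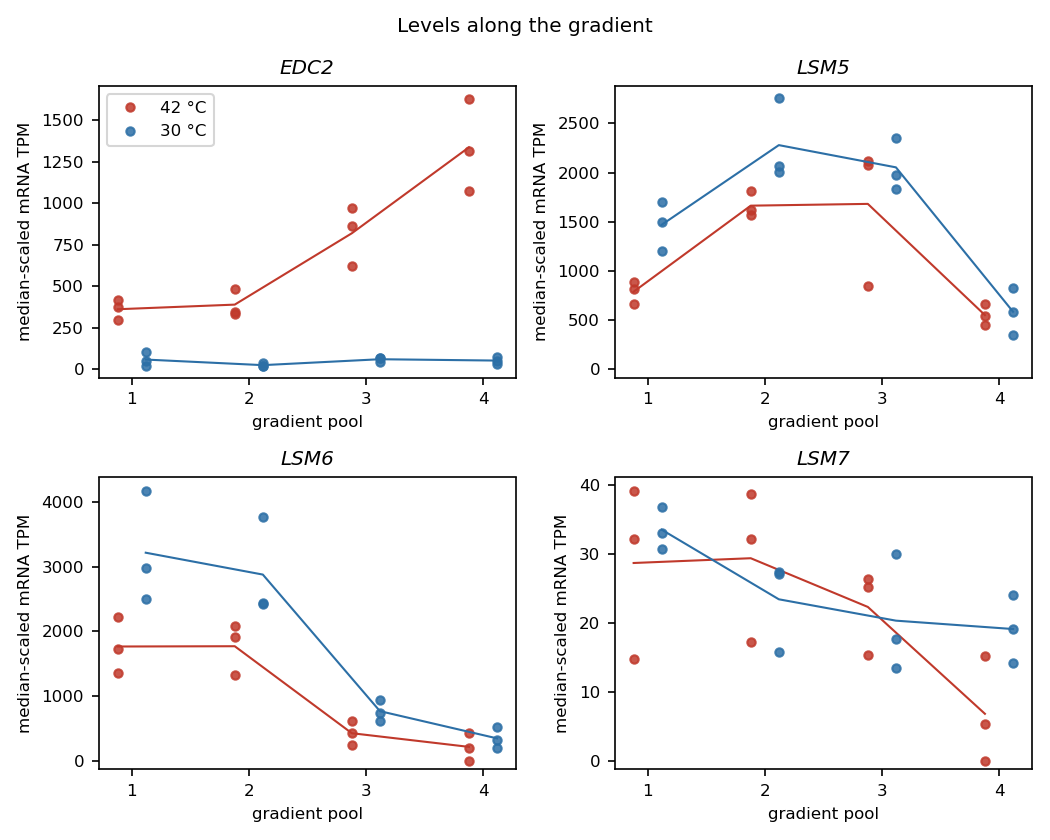
Median-scaled mRNA TPM of EDC2, LSM5, LSM6 and LSM7 in gradient pools 1 to 4 (linear axes); points are libraries, lines join the means of 3 at 42 °C (red) and 3 at 30 °C (blue). EDC2 at 42 °C climbs to 1073 to 1627 in pool 4, while LSM6 is lowest in pool 4 at both temperatures.

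Without the filter on low values, 7 of the 34 members differed between pool 4 and pool 1 at 42 °C, 5 higher and 2 lower, beside 13% and 4.67% of all 5777 mRNAs fitted, which is near the members' shares. The higher ones were EDC2, DHH1 (1.08), XRN1 (0.64), MOT2 (1.24) and SKI8 (1.04), with limma adjusted p from 0.000251 to 0.0494.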

How the data were processed

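Gradient pools of yeast were sequenced with Stranded SMART-Seq. The authors deposited TPM for 24 libraries, and the submitters' processing notes name Trim Galore 0.6.5, Salmon 1.9.0 and the build R64. No label or header used here gives their settings. The table holds 6087 entries, of which 5959 are mRNAs, 5 ribosomal RNAs and 5 spike-ins; 3 emptied lines were skipped. The members and lists were chosen with earlier results of these data known. The deposited TPM were rescaled to the mRNA sum and then to the median tested mRNA. Tests used limma 3.58.1 in R 4.3.3 with a mean-variance trend on log2(level + 1), a filter of 10 mRNA TPM in 3 libraries, and Benjamini-Hochberg at 5%. Heat over gradient means used 6 values; heat within pools used 8 group means; pool 4 against pool 1 used the gradient as a block. The code was tested on simulated data. Members past 5% are given with their values, and of the further lists at most the 3 largest changes in each direction. Deviations of same-numbered gradients at 42 °C and 30 °C correlated at 0.149, 0.143 and 0.202, and within pools at 0.032 to 0.0986. The main heat tests did not pair the gradients by number. Pairing entered only as the replicate block, an alternative. Alternatives changed the pseudocount, filter, scaling, trend, replicate block, pools and gradients used; 2 were added after the data were seen: spike-ins with a replicate block, and gradient means over pools 2 to 4. TPM keep no depth, so no counting interval is given. Coordinates are from RefSeq, R64.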

Additional observations from a re-analysis of the deposited data

Results flagged for a closer look

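For EDC2 the test of a difference in the heat effect between pools passed with all gradients. Its pool 4 minus pool 1 difference was larger at 42 °C than at 30 °C by 1.84 on the log2 scale (limma adjusted p = 0.0396, n = 3 gradients each), and the pool 4 level was above the pool 1 level in all 3 gradients at 42 °C. The call was lost without 5 of the 6 gradients taken singly (limma adjusted p between 0.0559 and 0.189), with quantile normalization (limma adjusted p = 0.0762) and with no gradient block (limma adjusted p = 0.263), and without median scaling the value was 0.03 (limma adjusted p = 0.964). It held with no filter on low values and relative to 25S rRNA, where the value was 2.18 ± 0.41 (SE, limma adjusted p = 0.0160). The mRNA share of a library also differed between these pools, at 2.22% to 2.43% in pool 4 and 0.142% to 0.402% in pool 1 at 42 °C, and its part in the result was not tested.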

How the results depend on the processing

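The 12 members past 5% over gradient means became 10 (4 higher, 6 lower) with a replicate block, which lost DCP2 and PAT1. In pools 1 to 4 the paired counts were 10, 9, 11 and 9, with DHH1 gained in pool 2 and LSM3 in pool 4. The block changed no other call among the tested members. With it 33.6% of all tested mRNAs were higher and 32.8% lower over gradient means. In pools 1 to 4, 27.8% to 29.9% were higher and 25.7% to 27.2% lower. Relative to 25S rRNA 19 members passed over gradient means, 17, 16 and 14 in pools 1, 2 and 4, and 19 and 10 for pool 4 against pool 1 at 42 °C and 30 °C, where 52.5% and 39.7% of all tested mRNAs were higher in pool 4. In the heat comparisons on that scale 53.3% of all tested mRNAs were lower over gradient means, and 51.6%, 43.4% and 44.4% in pools 1, 2 and 4. Relative to the spike-ins the counts were 0 over gradient means, 0 in each of pools 1 to 3 and 1 in pool 4, then 20, 6 and 3 for the pool comparisons at 42 °C, at 30 °C and for their change, where 63.7%, 31.2% and 7.29% of all tested mRNAs were higher. In these heat comparisons 9.83% of all were lower over gradient means, and 10.3%, 8.36%, 11.2% and 10.8% in pools 1 to 4. With a replicate block on the spike-in scale, 19 passed over gradient means and 19 in pool 1, where 52.5% and 59.5% of all were lower. On mRNA TPM without median scaling the counts were 6 in pool 1, 15 in pool 4, and 6, 13 and 13 in the pool comparisons, beside 39.7% of all higher in pool 1, 43.8% lower in pool 4, and 16.4% lower, 53.6% higher and 56.1% lower in the pool comparisons. A filter of 50 mRNA TPM left 8 members to test, of which 4 passed over gradient means and 4, 3, 4 and 4 in pools 1 to 4. With that filter 36.9% of 1903 mRNAs were higher and 37.5% lower over gradient means. In pools 1 to 4, 31.2% to 33.3% were higher and 30.7% to 31.5% lower. Fitted alone, pools 1 and 4 gave 5 members each. No filter gave 7 for pool 4 against pool 1 at 42 °C; a pseudocount of 5 gave 2 at 30 °C. Pool 3 in place of pool 4 gave 0 at 30 °C and 0 for the change; no gradient block and quantile normalization also gave 0 for the change by limma, with EDC2 at adjusted p = 0.263 and 0.0762. Leaving out one gradient gave 9 to 13 over gradient means, 6 to 9, 5 to 8, 6 to 11 and 4 to 8 in pools 1 to 4, 3 to 5 and 0 to 2 for the pool comparisons at 42 °C and 30 °C, and 0 to 1 for their change. The shares of all tested mRNAs moved as well. Over gradient means 29.6% to 33% were higher and 28.5% to 32.7% lower. In pools 1 to 4, 22.6% to 27.4% were higher and 20.3% to 27.1% lower. In the pool comparisons 10.4% to 13.8% were higher at 42 °C and 2.08% to 7.01% at 30 °C, with 4.71% to 6.48% and 1.54% to 4.76% lower. Values that changed sign were, relative to 25S rRNA, DCP2 (-0.42 over gradient means, -0.47 and -0.27 in pools 1 and 4) and DHH1 (-0.013); relative to the spike-ins, with and without a replicate block, DCP2 (-0.60, and -0.91 and -0.23 in pools 1 and 4), DHH1 (-0.19) and CAF40 (-0.091, and -0.48 and -0.10 in pools 1 and 3); DCP2 in pool 4 without median scaling (-0.24); and LSM5 at 30 °C with pool 3 (0.49). Of 948 values of single members over all alternatives, 746 kept direction and call, 182 kept direction without the call and 20 changed sign; the cause was not tested.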

Other observations

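LEU2, which BY4743 lacks, had 22.6 to 74.1 mRNA TPM at 42 °C and 36.7 to 217 mRNA TPM at 30 °C in replicate 1. In replicate 2 it had 4.57 to 20.2 mRNA TPM at 42 °C and 4.15 to 25.8 mRNA TPM at 30 °C. It was listed at 0 in all 8 libraries of replicate 3.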
